A study of Homo sapiens with 6 samples.

Results

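Cancer-testis antigen genes were described in libraries labelled Hep3B, a human liver cancer line, with and without knockdown of HYOU1. Members were protein-coding genes whose name was TEX19 or began with MAGEA, MAGEB, MAGEC, XAGE, PAGE, GAGE, SSX, CT45A, CT47A or CTAG, and 84 of the 58735 genes of the deposited table met this rule. The rule reads names only. It was drawn up, however, with the rises of TEX19 and XAGE2 in these libraries known, so all values of the comparison below describe the members and no test of them is offered. The rule also takes in SSX2IP, which encodes a partner of the SSX2 protein and is not itself a cancer-testis antigen. Of the members 82 lie on chromosome X, TEX19 lies on chromosome 17 and SSX2IP on chromosome 1.

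Both groups carry the label Hep3B. In 3 libraries the hairpin RNA (short hairpin RNA, shRNA) was a control, and in the other 3 it was directed against HYOU1, a chaperone of the endoplasmic reticulum. No source used here gives the hairpin sequences, their number or the time after delivery. The labels do not say whether replicates were separate cultures, so the spread between libraries may be technical. HYOU1 was at 37.6, 58.2 and 59.5 FPKM (fragments per kilobase of gene, scaled for library size) in controls 1, 2 and 3. It was at 2.35, 2.32 and 2.37 FPKM in the libraries with HYOU1 shRNA, which matches the labels. Each library held between 16893091 and 18233240 fragments. Control replicate 1 stood apart: over 12442 tested genes its deviation from the control mean had a correlation of -0.714 with GC content, against 0.509 and 0.588 for control replicates 2 and 3 and between -0.156 and 0.207 for the HYOU1 shRNA libraries. Deviations within a group sum to 0, so these values depend on each other, and results are repeated with that library left out and with a correction for GC. Of 10 hepatocyte markers none reached a mean of 1 FPKM and 4 were at 0 in every library, ALB, APOB, APOH and TTR. AFP, the fetal liver protein, had 3 fragments in all. The identity of the cells therefore rests on the labels, and these liver markers go against it.

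Cancer-testis antigens are proteins whose genes are active in male germ cells, silent in most other adult tissues and switched on again in many tumours. In somatic cells their promoters are usually methylated, and loss of DNA methylation or of repressive chromatin is a known route to their expression. MAGE proteins of the A, B and C families bind E3 ubiquitin ligases through a shared MAGE homology domain. GAGE, PAGE and XAGE proteins are short, acidic and largely unstructured relatives of each other. Many of these genes stand in clusters of near-identical copies on chromosome X, which limits how reads can be given to 1 copy.

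Libraries of both groups held a narrow part of this repertoire. Over the 6 libraries 13 members averaged 1 FPKM or more: GAGE2A, PAGE1, MAGEA6, MAGEA1, CTAG2, MAGEA3, MAGEA12, GAGE12H, CT45A10, TEX19, SSX2IP, XAGE2 and CT45A1. A further 17 members stayed under 1 FPKM but held at least 3 fragments in at least 1 library. Another 14 had at most 2 fragments in any library, and 40 had none in any. The lowest mean above the limit was that of CT45A1, at 2.49 FPKM, and the highest below it were those of MAGEB6, at 0.865, and CT45A5, at 0.760. No fragment was counted for any of the 12 CT47A or 3 MAGEC genes, nor for MAGEA4, CTAG1B, SSX2 or SSX2B. CTAG1A, a copy of CTAG1B, had 1 fragment. For these genes 3 fragments per library would have been worth between 0.160 and 0.176 FPKM at a gene length of 1 kb. Such limits cover counting error only. CT47A genes, SSX2, SSX2B and CTAG1B share at least 89.4% of their 50-base stretches with other genes, and how reads with several matches were counted is not stated, so a 0 in these copies may not mean that no read came from them.

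**Figure D1:**
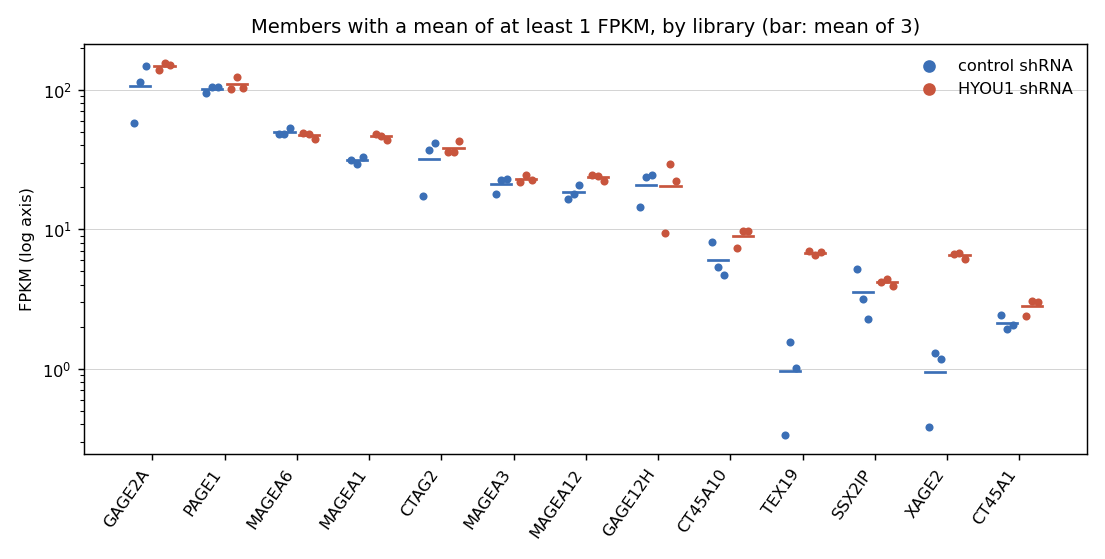
FPKM of the 13 members that averaged 1 FPKM or more, on a log axis, ordered by mean. Each point is 1 library and each bar the mean of 3 libraries. TEX19 and XAGE2 have all HYOU1 shRNA points at 6.10 FPKM or more and all control points at 1.54 or less, while PAGE1 and MAGEA6 overlap between the groups.

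TEX19 and XAGE2 had the largest differences among these 13 genes, both higher with HYOU1 shRNA. TEX19 (ENSG00000182459, chromosome 17, 82359247 to 82363776, plus strand, GRCh38) encodes a protein of germ cells, placenta and pluripotent cells that binds the ubiquitin ligase UBR2 and is known for restraining retrotransposons. Its level was 0.333, 1.54 and 1.01 FPKM in controls 1, 2 and 3. In HYOU1 shRNA replicates 1, 2 and 3 it was 6.95, 6.58 and 6.85 FPKM. The groups did not overlap, and control replicate 1 was the lowest library. Group means of 0.961 ± 0.607 and 6.79 ± 0.193 FPKM (SD, n = 3 each) made a 7.07-fold higher level, or 5.33-fold without control replicate 1. These values rest on 11, 56 and 35 fragments in the control libraries against 241, 234 and 232. In bulk RNA, more cells that carry a transcript and more transcript per cell cannot be told apart.

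XAGE2 (ENSG00000155622, chromosome X, 52369030 to 52375680, plus strand, GRCh38) belongs to the GAGE-like family. It was at 0.379, 1.30 and 1.17 FPKM in controls 1, 2 and 3. With HYOU1 shRNA the libraries stood at 6.69, 6.78 and 6.10 FPKM. Again control replicate 1 was the lowest library and the groups did not overlap. Group means of 0.949 ± 0.497 and 6.53 ± 0.367 FPKM (SD, n = 3 each) made a 6.88-fold higher level, or 5.29-fold without control replicate 1. Control libraries held 4, 15 and 13 fragments of XAGE2 and HYOU1 shRNA libraries 74, 77 and 66. Neither gene shared any stretch of 50 bases with another gene's transcripts, so their values do not depend on the split of reads between copies. Both had control means just under 1 FPKM and passed the limit of 1 FPKM through the HYOU1 shRNA group.

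The fit across all genes (limma on log2(FPKM + 0.1), 12448 genes that averaged 1 FPKM or more) gives the background for these members. Of the 13 members, 3 were higher at an adjusted p under 0.05, namely TEX19, XAGE2 and MAGEA1, where 6.6% of all tested genes were called higher. None was lower, where 5.66% of all tested genes were. At an unadjusted p under 0.05, 5 members were higher and 0 lower by limma. Voom on fragments recovered from the same libraries gave the same counts, so it is no independent result. The share of all tested genes at that unadjusted threshold is not given, so these counts have no background. Values did not overlap between groups in 4 of the 13, all higher, against 23.8% of all tested genes that were higher and 20.6% that were lower without overlap. The rule was drawn up from this contrast, so nothing is read from these shares. The log2 fold change was 2.90 for TEX19 (standard error 0.46) and 2.80 for XAGE2 (standard error 0.41). The median log2 fold change over the 13 members was 0.37, beside 0.035 over all tested genes and 0.0016 over 415 tested genes of chromosome X that are no members. The median over the 11 members other than TEX19 and XAGE2 was 0.35. No TEX19 or XAGE2 call was left when 1 HYOU1 shRNA library was omitted, although the log2 fold change stayed between 2.78 and 2.92.

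**Figure D2:**
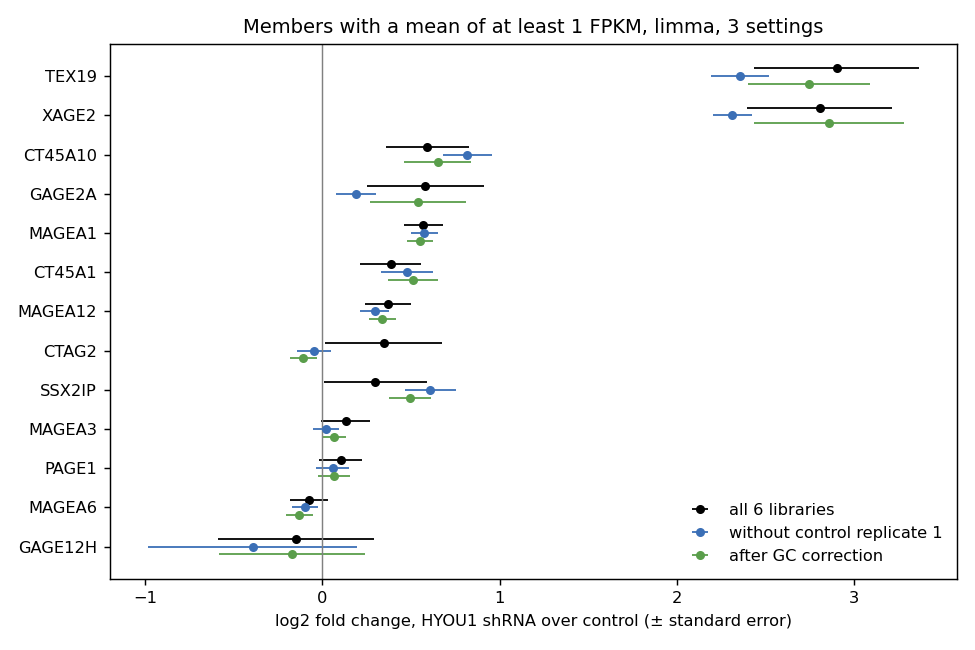
Log2 fold change of HYOU1 shRNA over control for the 13 members that averaged 1 FPKM or more, with the standard error as a bar, from all 6 libraries, without control replicate 1 and after GC correction. TEX19 and XAGE2 lie at 2.31 or above in each of these settings, MAGEA1 lies between 0.55 and 0.58, and CTAG2 changes sign.

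Among the MAGEA genes, which encode adaptors of ubiquitin ligases such as TRIM28, MAGEA1 was the only one called among the 4 that averaged 1 FPKM or more. MAGEA1 (ENSG00000198681, chromosome X, 153179285 to 153183880, plus strand) was at 31.4, 29.2 and 33.1 FPKM in the control libraries and at 48.3, 46.8 and 44.0 FPKM with HYOU1 shRNA. The groups did not overlap. It averaged 31.2 ± 1.97 and 46.4 ± 2.19 FPKM (SD, n = 3 each), with 0.57 ± 0.11 (standard error) as the log2 difference. The level was 1.49-fold higher, also without control replicate 1, and 0.662% of its 50-base stretches recur in other genes. MAGEA1 was not called without any 1 of the HYOU1 shRNA libraries, without control replicate 2, with the replicate number as a block or without a filter.

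MAGEA6 and MAGEA3 had similar means in both groups. MAGEA6 was at 48.1, 48.2 and 53.3 FPKM in control and at 49.3, 48.1 and 44.7 FPKM with HYOU1 shRNA. MAGEA3 was at 18.0, 22.5 and 22.8 FPKM in control and at 21.9, 24.7 and 22.5 FPKM with HYOU1 shRNA. The groups overlapped in both genes. These copies share 54.5% of their 50-base stretches with each other, so reads may be split between them. Their fragments together came to 131 ± 9.19 FPM (fragments scaled to a library of 1000000) in control and 129 ± 5.38 with HYOU1 shRNA (SD, n = 3 each), a ratio of 0.991. MAGEA12, next to them on chromosome X, was at 16.5, 18.0 and 20.6 FPKM in control and at 24.6, 24.3 and 22.1 FPKM with HYOU1 shRNA. Its groups did not overlap, and its log2 fold change was 0.37 (standard error 0.13). MAGEA12 was called only after the GC correction, with or without the block, and without control replicate 1, at 0.34 and 0.30.

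GAGE2A and PAGE1 were the most abundant members. PAGE1, which shares no 50-base stretch with another gene, was at 95.5, 104 and 106 FPKM in control and at 102, 125 and 102 FPKM with HYOU1 shRNA. The groups overlapped, and the log2 fold change was 0.10 (standard error 0.12). GAGE2A was at 58.0, 115 and 149 FPKM in control and at 140.0, 157 and 151 FPKM with HYOU1 shRNA. Control replicate 1 was the lowest library, and the 1.39-fold difference of the means was 1.13-fold without it. GAGE12H was at 14.5, 23.7 and 24.4 FPKM in control and at 9.43, 29.3 and 22.1 FPKM with HYOU1 shRNA, and its groups overlapped. GAGE2A and GAGE12H share 85.2% and 89.5% of their 50-base stretches with other genes, so values of single GAGE genes are uncertain. The 13 GAGE genes together held 38.8, 74.8 and 92.8 FPM in control and 79.5, 99.5 and 93.4 with HYOU1 shRNA, where the groups overlap.

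CTAG2, which encodes the antigen LAGE-1 and is a relative of NY-ESO-1, was lowest in control replicate 1. It was at 17.3, 37.1 and 41.7 FPKM in control and at 35.9, 35.9 and 43.1 FPKM with HYOU1 shRNA. Its transcript has a GC content of 64.5%. The log2 fold change was 0.35 (standard error 0.33) in all libraries, -0.046 without control replicate 1 and -0.11 after GC correction. The part of GC content in this value was not tested further. CT45A10 was at 8.05, 5.38 and 4.68 FPKM in control and at 7.40, 9.79 and 9.77 FPKM with HYOU1 shRNA, and here control replicate 1 was the highest control library. Its transcript has a GC content of 46.7%, and its log2 fold change was 0.59 in all libraries, 0.82 without control replicate 1 and 0.65 after GC correction. CT45A1 was at 2.43, 1.93 and 2.06 FPKM in control and at 2.40, 3.08 and 3.02 FPKM with HYOU1 shRNA. CT45A1 and CT45A10 share 90.9% and 70.6% of their stretches with other genes. SSX2IP was at 5.24, 3.17 and 2.29 FPKM in control and at 4.18, 4.40 and 3.92 FPKM with HYOU1 shRNA. CT45A1, CT45A10, SSX2IP and MAGEA12 were called higher without control replicate 1, which brought the members called to 7 of 13, where 24.6% of all tested genes were then called higher and 19.7% lower. After GC correction the count was also 7 of 13, where 20.4% of all tested genes were called higher and 20.2% lower. No member was called lower in either setting.

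Members under 1 FPKM were not part of that fit, and they are described by whole fragments recovered from the deposited values. Of the 17 with at least 3 fragments in a library, 8 were higher with HYOU1 shRNA and 0 lower without overlap in FPKM. By whole fragments 7 were higher and 0 lower, since GAGE2E ties at 3 fragments. Among all 4832 protein-coding genes chosen by the same limits, 16.4% were higher and 12.1% lower without overlap, and among all 11983 genes of any type 9.76% and 9.86%. Here too nothing is read from the shares. The 8 genes were MAGEB6, MAGEB17, MAGEB18, MAGEA2, MAGEA9, MAGEA11, PAGE2B and GAGE2E. Of these MAGEB17, MAGEB18 and PAGE2B reached 3 fragments only in HYOU1 shRNA libraries, so under this limit they could not have come out lower.

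**Figure D3:**
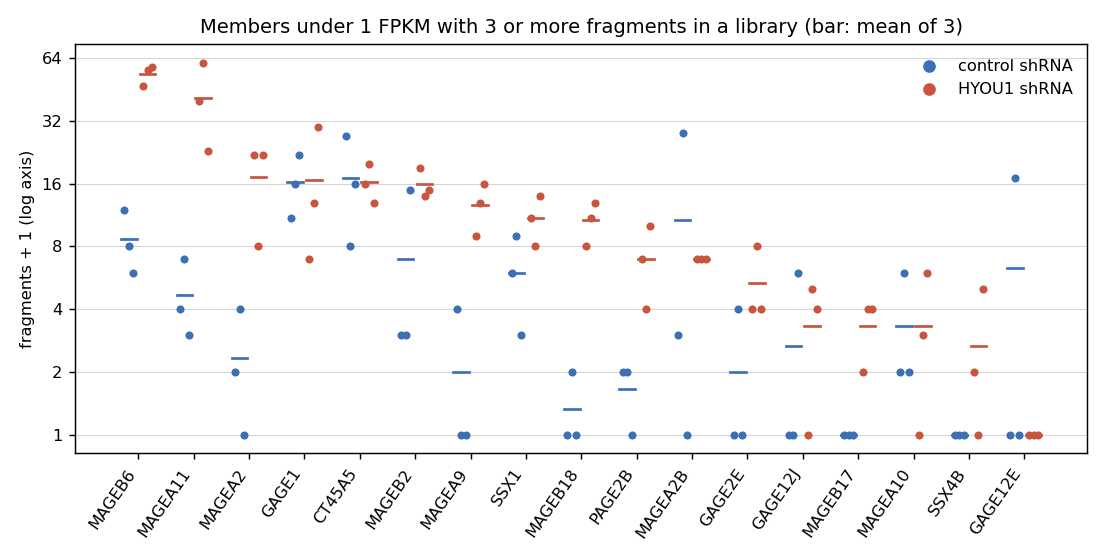
Fragments per library, plus 1, on a log axis for the 17 members under 1 FPKM with at least 3 fragments in a library, ordered by their sum with HYOU1 shRNA. Each point is 1 library and each bar the mean of 3 libraries. MAGEB6 and MAGEA11 have at least 22 fragments in each HYOU1 shRNA library and at most 11 in each control library.

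MAGEB genes made up the clearest part of this group. MAGEB6 (chromosome X, 26192440 to 26195646) held 11, 7 and 5 fragments in control replicates 1, 2 and 3 and 46, 55 and 57 in HYOU1 shRNA replicates 1, 2 and 3. Its means were 0.222 ± 0.0974 and 1.51 ± 0.178 FPKM (SD, n = 3 each), a 6.80-fold higher level. MAGEB18, which lies in the same cluster at 26138343 to 26140735, held 0, 1 and 0 fragments in control and 7, 10 and 12 with HYOU1 shRNA. MAGEB17 held none in control and 1, 3 and 3 with HYOU1 shRNA. MAGEB2 held 2, 2 and 14 fragments in control and 18, 13 and 14 with HYOU1 shRNA, where control replicate 3 overlaps. MAGEB10 had a single fragment, and the other 6 MAGEB genes, MAGEB6B in the MAGEB6 cluster among them, had none. MAGEB17, MAGEB18 and MAGEB2 share no 50-base stretch with other genes and MAGEB6 shares 8.37%. The family as a whole came to 13, 10 and 19 fragments in control and 73, 81 and 86 with HYOU1 shRNA, a 5.69-fold higher level in FPM. Of these fragments MAGEB6 held 23 in control and 158 with HYOU1 shRNA, and MAGEB2 18 and 45. The family sum with HYOU1 shRNA is therefore largely that of MAGEB6.

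Among the weakly expressed MAGEA genes, MAGEA11 and MAGEA9 were higher in the HYOU1 shRNA libraries without overlap. MAGEA11, which encodes a coregulator of the androgen receptor, held 3, 6 and 2 fragments in control and 39, 60 and 22 with HYOU1 shRNA. Its means were 0.0584 ± 0.0309 and 0.645 ± 0.290 FPKM (SD, n = 3 each), an 11.0-fold higher level. MAGEA9 and its copy MAGEA9B together held 3, 0 and 0 fragments in control and 9, 12 and 16 with HYOU1 shRNA. MAGEA2 held 1, 3 and 0 fragments in control and 21, 7 and 21 with HYOU1 shRNA. MAGEA2B, whose transcript is shared entirely with MAGEA2, held 2, 27 and 0 in control and 6, 6 and 6 with HYOU1 shRNA. The sum of these copies, 3, 30 and 0 against 27, 13 and 27, overlapped between the groups, so no difference is read for MAGEA2 alone. MAGEA10 held 1, 5 and 1 against 0, 2 and 5 fragments, and MAGEA8 a single fragment in all.

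Outside the MAGE families most weak members overlapped between the groups. PAGE2B held 1, 1 and 0 fragments in control and 6, 3 and 9 with HYOU1 shRNA. It shares 47.5% of its 50-base stretches with other genes, and together with its copy PAGE2 it held 1, 2 and 0 against 7, 3 and 9. SSX1, a transcriptional corepressor that is fused to SS18 in synovial sarcoma, held 5, 8 and 2 against 10, 7 and 13, and its groups overlapped. SSX4B held none in control and 1, 0 and 4 with HYOU1 shRNA. CT45A5 held 26, 7 and 15 against 15, 19 and 12, and GAGE1, which overlaps GAGE2A on the same strand, held 10, 15 and 21 against 6, 12 and 29. GAGE2E held 0, 3 and 0 against 3, 7 and 3, and GAGE12J held 0, 0 and 5 against 0, 4 and 3. GAGE12E had 16 fragments in control replicate 2 and none elsewhere. GAGE2E and GAGE12E share all of their 50-base stretches with other GAGE genes. With the filter lowered to 0.1 FPKM, 27 members entered the fit and 5 were called higher, where 3.85% of the 20512 genes were. None was called lower, where 3.14% of those genes were. MAGEB6 and MAGEA11 joined TEX19, XAGE2 and MAGEA1, with log2 fold changes of 2.36 (standard error 0.30) and 2.17 (standard error 0.43). MAGEA11 passed that filter through the HYOU1 shRNA group alone, with a control mean of 0.0584 FPKM.

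Summed by family, MAGEA genes held the most fragments, while per gene length GAGE genes led, with summed mean levels of 149.9 against 131.5 FPKM. MAGEA genes together held 208, 217 and 237 FPM in control and 266, 266 and 246 with HYOU1 shRNA, 1.17-fold higher and without overlap. Among the abundant MAGEA genes, MAGEA1 and MAGEA12 were higher without overlap, while MAGEA3 and MAGEA6 together had a ratio of 0.991. PAGE genes held 63.6, 69.5 and 70.3 against 68.4, 83.2 and 68.6, and CTAG genes 17.3, 36.9 and 41.5 against 35.6, 35.7 and 42.8, with overlap in both. MAGEB and XAGE genes had lower levels and larger ratios, at 0.785 ± 0.263 against 4.47 ± 0.422 and at 0.586 ± 0.307 against 4.05 ± 0.247 FPM (SD, n = 3 each). The XAGE sum is that of XAGE2, with 249 fragments over the 6 libraries, and 1 fragment of XAGE1B. It therefore repeats the XAGE2 difference, which was known when the rule was drawn up. All 71 members under 1 FPKM together held 68, 103 and 65 fragments in control and 196, 225 and 232 with HYOU1 shRNA. Much of this sum came from MAGEB6, with 23 fragments in control and 158 with HYOU1 shRNA, and MAGEA11, with 11 and 121. At least 1 fragment was found for 13, 15 and 8 of the 71 members in the control libraries and for 21, 19 and 19 in the HYOU1 shRNA libraries. Other weak genes were not summed or counted in this way, so nothing is read from these values about weak members as a whole.

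**Figure D4:**
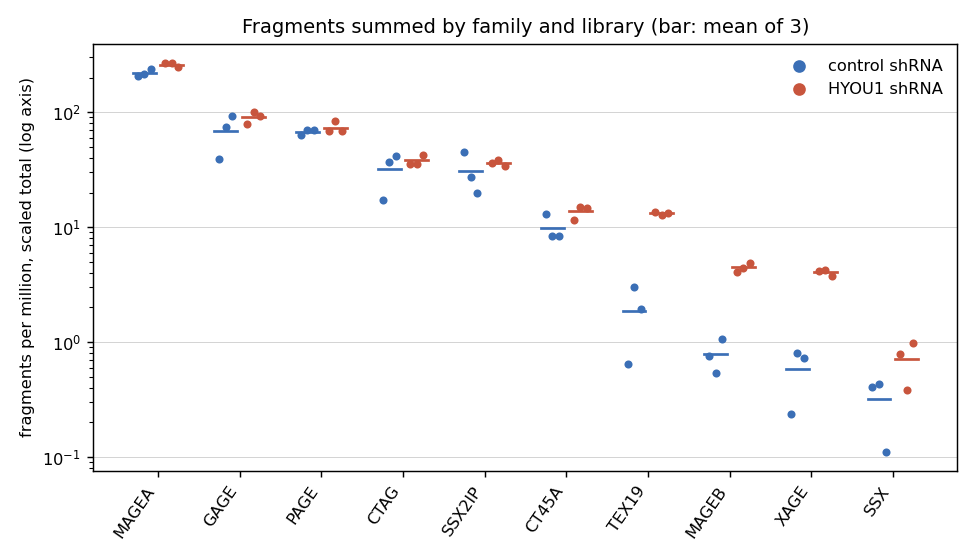
FPM (fragments scaled to a library of 1000000) summed by family, on a log axis. Each point is 1 library and each bar the mean of 3 libraries. The MAGEB, XAGE and TEX19 points of the groups are apart by several fold, while the GAGE, PAGE, CTAG and CT45A points overlap. The XAGE points are XAGE2 but for 1 fragment.

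Promoter sequences are shown for 4 members that were higher with HYOU1 shRNA without overlap, XAGE2, MAGEB6, MAGEB18 and PAGE2B, and for PAGE1 and GAGE2A, which were abundant in both groups. Each is the 250 bases before the RefSeq start site on GRCh38.p14, 5′ to 3′ on the gene's strand, and 57 of the 84 members matched that table. TEX19, MAGEA1 and CTAG2 were not matched. Capitals mark each CG dinucleotide, the target of DNA methylation, and each full match to the E-box, ETS-type or E2F-type motif that is spelled out with its counts.
XAGE2: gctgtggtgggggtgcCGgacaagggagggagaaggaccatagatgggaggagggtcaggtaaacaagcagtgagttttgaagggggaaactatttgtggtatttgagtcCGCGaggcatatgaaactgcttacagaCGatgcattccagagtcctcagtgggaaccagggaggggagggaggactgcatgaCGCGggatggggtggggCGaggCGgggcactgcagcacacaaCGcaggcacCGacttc
MAGEB6: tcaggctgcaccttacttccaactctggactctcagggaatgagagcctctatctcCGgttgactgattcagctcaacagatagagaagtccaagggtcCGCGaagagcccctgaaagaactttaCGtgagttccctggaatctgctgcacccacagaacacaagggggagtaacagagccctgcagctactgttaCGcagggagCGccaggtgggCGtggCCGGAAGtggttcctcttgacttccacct
MAGEB18: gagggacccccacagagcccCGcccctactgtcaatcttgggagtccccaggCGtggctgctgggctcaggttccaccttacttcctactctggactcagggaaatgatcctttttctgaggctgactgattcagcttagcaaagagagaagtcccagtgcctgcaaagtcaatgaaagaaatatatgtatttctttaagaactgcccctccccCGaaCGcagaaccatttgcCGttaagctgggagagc
PAGE2B: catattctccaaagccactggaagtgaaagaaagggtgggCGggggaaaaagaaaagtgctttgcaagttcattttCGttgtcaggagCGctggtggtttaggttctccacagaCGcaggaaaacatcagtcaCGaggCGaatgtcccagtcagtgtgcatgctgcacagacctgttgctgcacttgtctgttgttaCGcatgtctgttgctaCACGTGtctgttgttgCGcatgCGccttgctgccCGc
PAGE1: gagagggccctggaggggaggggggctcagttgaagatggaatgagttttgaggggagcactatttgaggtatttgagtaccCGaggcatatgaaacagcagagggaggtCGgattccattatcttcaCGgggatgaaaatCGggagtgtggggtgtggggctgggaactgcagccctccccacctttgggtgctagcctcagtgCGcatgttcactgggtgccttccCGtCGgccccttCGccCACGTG
GAGE2A: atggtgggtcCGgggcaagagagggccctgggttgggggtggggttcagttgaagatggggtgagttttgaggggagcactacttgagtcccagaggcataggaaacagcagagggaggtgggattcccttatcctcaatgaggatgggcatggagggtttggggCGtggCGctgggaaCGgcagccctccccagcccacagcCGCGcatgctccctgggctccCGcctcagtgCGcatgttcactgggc

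The windows lie on chromosome X at 52368771 to 52369020 for XAGE2, 26192190 to 26192439 for MAGEB6, 26138093 to 26138342 for MAGEB18 and 55074780 to 55075029 for PAGE2B, all on the plus strand. That of PAGE1 lies at 49695985 to 49696234 on the minus strand and that of GAGE2A at 49589246 to 49589495 on the plus strand. They hold 10, 8, 5 and 11 CG dinucleotides in XAGE2, MAGEB6, MAGEB18 and PAGE2B, and 9 and 8 in PAGE1 and GAGE2A. The counts of the 4 promoters of the first kind therefore lie on both sides of those of the other 2, which holds for the 6 shown only. MAGEA3 and MAGEA6, also abundant in both groups, hold 15 each. MAGEA9 and MAGEA11, also higher without overlap, hold 7 and 18. Over all 35116 RefSeq promoters the median was 11, with quartiles of 3 and 23, and over the 74 windows of matched members it was 8. CACGTG, an E-box that MYC, MAX and MGA can bind, was found before 4 of 6 PAGE genes, PAGE1 and PAGE2B among them, and in 6.34% of all promoters. GCGGGAA, a sequence of the E2F type, was found before 5 of 7 matched SSX genes and in 5.52% of all promoters. CCGGAAG, of the ETS type, was found before 2 of 10 matched MAGEB genes, MAGEB6 being 1 of them, and in 8.52% of all promoters. Over the 74 windows of matched members the E-box was found in 8.11%, the E2F type in 8.11% and the ETS type in 4.05%. The family counts are of genes, some with several windows, so they are not of the same kind as the shares of promoters. All were searched on both strands, and each of the 3 motifs contains a CG. A match describes the sequence and is not evidence of binding. For each motif only the family with the most matching genes is named. Genes of a family can be near-identical copies, as SSX2 and SSX2B are, so their matches are not independent.

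Genes next to the members were examined within 100 kb. Around the 13 members 18 other genes were tested, and 0 were called higher, 1 lower and 17 neither (limma, adjusted p under 0.05), where 12.3% of all tested genes were called in either direction. At an unadjusted p under 0.05, 1 was higher and 1 lower, also by voom on recovered fragments. The share of all tested genes at that unadjusted threshold is not given. TEX19 had 9 such neighbours, none of them called. SECTM1, 25.2 kb from TEX19, was at 4.51 ± 1.98 and 4.79 ± 0.460 FPKM, and OGFOD3, 25.4 kb away, at 2.23 ± 0.809 and 2.81 ± 0.191 FPKM (SD, n = 3 each). CSAG1, which lies 0.044 kb from MAGEA12 and is itself a cancer-testis gene, had a log2 difference of 0.33 (limma adjusted p = 0.378). The gene called lower was MMGT1, 73.0 kb from CT45A10, with a log2 difference of -1.02 (limma adjusted p = 0.0379). XAGE2, MAGEA1 and PAGE1 had no tested neighbour outside the member families. Among the 415 tested genes of chromosome X that are no members, 25 were called higher and 28 lower.

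**Figure D5:**
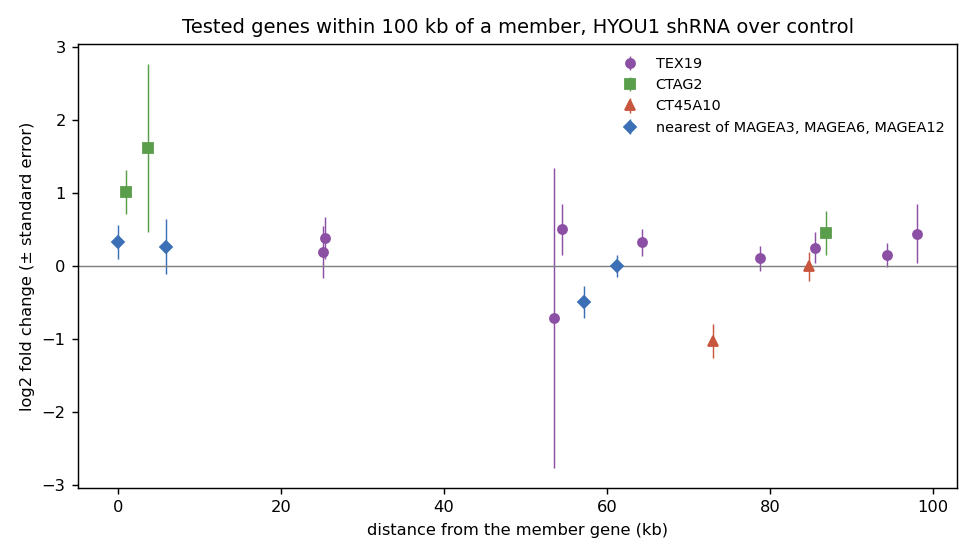
Log2 fold change of HYOU1 shRNA over control, with its standard error, for the 18 tested genes within 100 kb of a member, against their distance from that member in kb. The 9 neighbours of TEX19 lie between -0.71 and 0.50, and none was called.

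Other cancer-testis and germline genes were examined as a list of 59. Of these 18 had no fragment in any library, and 10 reached a mean of 1 FPKM. Of the 10 tested, 1 was called higher, 0 lower and 9 neither, with a median log2 fold change of 0.30. Over all tested genes 6.6% were called higher and 5.66% lower. The called gene was VCX3A, of the VCX family on chromosome X, at 0.384 ± 0.285 and 3.27 ± 0.917 FPKM (SD, n = 3 each; log2 difference 3.03, limma adjusted p = 0.0266). VCX3A was not called without control replicate 2, without any 1 of the HYOU1 shRNA libraries or without a filter. Like TEX19 and XAGE2, it passed the limit of 1 FPKM through the HYOU1 shRNA group. PRAME, a substrate receptor of a cullin ligase, was at 17.3 ± 0.519 and 18.9 ± 1.44 FPKM (SD, n = 3 each) and was not called (limma, adjusted p = 0.511). It is named after its value was seen. Without control replicate 1, 5 of the 10 were called higher and 0 lower, where 24.6% and 19.7% of all tested genes were. After GC correction 3 were called higher and 0 lower, where 20.4% and 20.2% of all tested genes were. Voom also called 3 higher and 0 lower, where it called 985 of the 12448 genes higher and 821 lower. Of 28 list members under 1 FPKM with at least 3 fragments in a library, 6 were higher without overlap (CCDC110, DDX53, LDHC, PIWIL1, ROPN1B and TEX15) and SYCP2 was lower, beside the 16.4% and 12.1% of protein-coding genes under the same limits. PIWIL1, which encodes a PIWI protein of the germ line, had 0 fragments in the control libraries and 20 in the HYOU1 shRNA libraries. TEX15 had 2 against 30. PIWIL1 and TEX15 reached 3 fragments only in HYOU1 shRNA libraries, so under this limit they could not have come out lower. Both were picked out of the 28 with their counts already known. Of other genes on the list, PIWIL2 held 345 against 236 fragments, TDRD9 52 against 21 and PIWIL4 117 against 131. The groups overlapped in PIWIL2, TDRD9 and PIWIL4.

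Markers of germ cells were at or near 0 in both groups. Of 10 germ cell markers 7 were at 0 in every library, DDX4, DAZ1, PRM1, PRM2, TNP1, ACR and ZPBP, and none reached a mean of 1 FPKM. Their summed level was between 0.0881 and 0.366 FPKM in control and between 0.0711 and 0.171 FPKM with HYOU1 shRNA. Of 6 markers of pluripotent cells, DPPA3, LIN28A and NANOG were at 0 in every library, POU5F1 alone reached a mean of 1 FPKM, and the sum was between 1.02 and 1.94 FPKM in control and between 0.770 and 0.984 FPKM with HYOU1 shRNA. The 10 hepatocyte markers differed in direction: FGB averaged 1.34 and 0.150 FPKM, lower with HYOU1 shRNA, and SERPINA1 averaged 0.0880 and 0.478 FPKM, higher, neither with overlap. Their sums were between 1.44 and 1.75 FPKM in control and between 0.672 and 0.877 FPKM with HYOU1 shRNA. Of 3 fibroblast markers DCN and PDGFRB reached a mean of 1 FPKM and COL1A2 was at 0, and their sums were between 5.56 and 6.41 FPKM in control and between 2.49 and 2.83 FPKM with HYOU1 shRNA. Endothelial and immune markers, 3 and 4 in number, all stayed under a mean of 1 FPKM, with CD3E and PTPRC at 0. Sums were between 0.254 and 0.276 FPKM against 0.179 to 0.188 FPKM for endothelial markers, and between 0.571 and 1.45 FPKM against 0.582 to 0.759 FPKM for immune markers. The part of these marker differences in the members' values was not tested.

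MAGE genes outside the A, B and C families, which are expressed in many tissues, included 2 calls. Of 11 genes 3 were tested, of which 2 rose, 0 fell and 1 was not called, with a median log2 fold change of 0.74. Over all tested genes 6.6% were called higher and 5.66% lower. MAGEF1, which directs a ligase that acts on the iron-sulfur assembly factor MMS19, rose from 16.1 ± 0.456 to 28.0 ± 2.30 FPKM (SD, n = 3 each; log2 difference 0.79, limma adjusted p = 0.0118). MAGED2, a MAGE protein mutated in transient antenatal Bartter syndrome, rose from 84.4 ± 9.06 to 140.1 ± 4.43 FPKM (SD, n = 3 each; log2 difference 0.74, limma adjusted p = 0.0145). Neither was called without control replicate 2 or without any 1 of the HYOU1 shRNA libraries. MAGEH1, under 1 FPKM, held 3 fragments in the control libraries together and 95 in the HYOU1 shRNA libraries, and MAGED1 held 23 and 84. Both were higher without overlap, where 16.4% of protein-coding genes under 1 FPKM with at least 3 fragments in a library were. The share that was lower was 12.1%. MAGEH1 reached 3 fragments only in HYOU1 shRNA libraries, so under this limit it could not have come out lower.

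Genes of DNA methylation and repressive chromatin were examined as a list, together with factors that can bind such loci. Among its 36 tested genes are TET3 and TDG, which act in demethylation, and the transcription factors SP1, ETS1, ETS2 and CTCF. The counts are therefore not of silencing genes alone. Of the 36 tested genes 0 rose, 2 fell and 34 were not called, with a median log2 fold change of -0.11. Over all tested genes 6.6% were called higher and 5.66% lower. At an unadjusted p under 0.05, 3 were higher and 9 lower by limma. The share of all tested genes at that threshold is not given, so nothing is read from these counts. Voom called 0 higher and 5 lower after adjustment, where it called 985 of the 12448 genes higher and 821 lower. FAM208A, also named TASOR and a subunit of the HUSH silencing complex, fell by 1.08 on the log2 scale (limma, adjusted p = 0.0413), and HDAC1, a histone deacetylase, fell by 0.48 (limma, adjusted p = 0.0431). HDAC1 was not called when any library other than control replicate 1 was left out. It was also not called with the replicate block, TPM scaling, no variance trend, a filter of 0.1 FPKM or no filter. FAM208A was not called without control replicate 2 or any 1 of the HYOU1 shRNA libraries, nor with the replicate block, a filter of 0.1 FPKM or no filter. DNMT1, the maintenance DNA methyltransferase, was at 22.3 ± 2.81 and 21.3 ± 1.09 FPKM, and UHRF1, which brings it to replicated DNA, at 22.0 ± 3.18 and 22.6 ± 1.75 FPKM (SD, n = 3 each). Neither was called (limma, adjusted p = 0.783 and 0.837), and both are named after their values were seen. Without control replicate 1, 6 of the 36 genes were called higher and 10 lower, where 24.6% and 19.7% of all tested genes were. After GC correction 2 were called higher and 11 lower, where 20.4% and 20.2% of all tested genes were. Of 8 ubiquitin ligases and partners of MAGE proteins or TEX19, 0 were called in either direction, with a median log2 fold change of -0.22 (limma). At an unadjusted p under 0.05, 0 were higher and 1 lower, again with no share of all tested genes given, and voom called 0. TRIM28 was at 80.2 ± 19.6 and 100.8 ± 3.68 FPKM and USP7 at 27.4 ± 3.96 and 20.6 ± 0.498 FPKM (SD, n = 3 each). Without control replicate 1, 0 of the 8 were called higher and 2 lower, where 24.6% and 19.7% of all tested genes were.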

How the data were processed

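RNA was sequenced from 6 libraries labelled Hep3B, 3 for each of 2 shRNA groups. Per the labels' protocols, mRNA was selected with oligo(dT) beads before random-primed cDNA synthesis. The aligner, the counting tool and the use of strand are not given in sources used here, so overlapping genes are uncertain. The authors deposited 1 table of FPKM values with the length of each gene. All 58735 gene identifiers and coordinates matched GENCODE 29 on GRCh38. FPKM times length came in whole steps in each library (within 0.01 fragments for 100% of values, rounded), which gave back fragments per gene. The deposited scaling equalled median-of-ratios size factors, and FPM (fragments scaled to a library of 1000000) use that scaled total.

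HYOU1 shRNA was compared with control in limma 3.58.1 (R 4.3.3, trend and robust priors) on log2(FPKM + 0.1) for the 12448 genes that averaged 1 FPKM or more, with Benjamini-Hochberg adjustment over all of them and a threshold of 0.05. Fold changes on this scale understate weak genes. Every adjusted p comes from this fit. The script was tested on simulated data.

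All members were described. Lists name up to 4 called genes with the largest change, or the 2 most abundant if there was no call. The members and lists were chosen with earlier results of these data known. Alternatives were other pseudocounts, filters and scalings, no variance trend, the replicate number as a block, a correction for GC content of the longest transcript (lowess, span 0.3), voom on recovered fragments, and leaving out each library. Shared sequence is the share of 50-base stretches of the longest transcript found in transcripts of other genes. Promoters came from RefSeq.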

Additional observations from a re-analysis of the deposited data

How the results depend on the processing

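With all 6 libraries 1526 of 12448 genes were called, 822 higher and 704 lower. The count was 938 with a filter of 5 FPKM, 770 without a filter, 5048 after GC correction, 4504 after GC correction with the replicate block, and between 49 and 5518 when 1 library was left out. TPM scaling gave 875 higher and 607 lower, and quantile normalization 743 and 770. Members called higher, 3 with all libraries, numbered 5 with a filter of 0.1 FPKM, 1 with a filter of 5 FPKM, 7 after GC correction, 6 after GC correction with the replicate block, and 0 to 7 when 1 library was left out. No member was called lower in any of the 18 settings. TEX19 ranged from 2.04 to 3.32 and XAGE2 from 1.98 to 3.08 on the log2 scale over the settings that tested them. Signs turned for CTAG2, to -0.11 after GC correction with or without the block and -0.046 without control replicate 1 (range over left-out libraries -0.046 to 0.59), for TRIM28, to -0.067 after GC correction with or without the block, for PAGE1, to -0.011 with quantile normalization, and for GAGE12H, to 0.33 without HYOU1 shRNA replicate 1 (range -0.49 to 0.33). A stricter filter tests fewer genes and a left-out library leaves fewer samples; other causes were not tested.

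The labels give both groups the same replicate numbers. Deviations of same-numbered libraries correlated at 0.125, -0.0933 and 0.17 for replicates 1, 2 and 3. Controls 1 and 3 correlated best with the library of the same number, while control replicate 2 correlated best with HYOU1 shRNA replicate 3, at 0.160. Deviations within a group sum to 0, so these few values cannot tell whether same-numbered libraries were paired. With the replicate number as a block 940 genes were called, and 2 members higher; MAGEA1, FAM208A and HDAC1 were no longer called. Few fragments limit all members under 1 FPKM.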
